A study of Mus musculus with 10 samples.

Results

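The genes described here are the 5 members of the Ikaros family of zinc finger proteins (Ikzf1, Ikzf2, Ikzf3, Ikzf4 and Ikzf5) and 4 further genes tied to lymphoid priming (Bcl11a, Satb1, Ebf1 and Dntt). These 9 genes were chosen by name and not by a cut on their values, though with earlier results of these data known. Of these, 7 were found among the 17404 genes of the gene table, and all 7 were among the 16725 genes tested, those with at least 11 counts in total. Ikzf3 and Dntt could be read only from the transcript tables and were not tested. The libraries are bulk RNA-seq of long-term hematopoietic stem cells (LT-HSCs) sorted from the fetal liver of mouse embryos at E14.5. They comprise 6 libraries of the genotype Tnfrsf11aCre; Spi1f/f (KO) and 4 of the genotype Tnfrsf11a+/+; Spi1f/f (WT), so that both groups carry the floxed Spi1 alleles and only KO carries Cre. Cre is driven from the locus of Tnfrsf11a (RANK), a receptor expressed in macrophage precursors, and Spi1 encodes PU.1, a transcription factor that macrophages need to form. The comparison thus asks how LT-HSCs differ in fetal livers whose macrophages are depleted, with WT littermates as controls. The mice were of C57BL/6 background, and whether the sorted stem cells themselves had recombined Spi1 was not measured in these libraries.

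Ikaros proteins bind DNA through a cluster of C2H2 zinc fingers near the N-terminus and pair with one another through a second cluster at the C-terminus. They recruit the NuRD complex, which remodels nucleosomes and removes acetyl groups from histones, and other corepressors. Ikzf1 (Ikaros) is needed for the lymphoid potential of stem and progenitor cells, Ikzf2 (Helios) is expressed in stem cells and regulatory T cells, Ikzf3 (Aiolos) acts in later B cells, and Ikzf4 (Eos) and Ikzf5 (Pegasus) are the other two members. Bcl11a is a zinc finger repressor required for B cell development and for silencing of fetal globin, Satb1 is a chromatin organizer that promotes lymphoid fate, Ebf1 specifies the B lineage and Dntt encodes terminal deoxynucleotidyl transferase, which adds bases at antigen receptor junctions.

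To show how the family members are related, the second C2H2 finger, part of the N-terminal DNA-binding cluster, was compared. Its coding sequences are given below from Gencode vM21 transcripts on GRCm38, each within 1 exon, as 63 bases 5′ to 3′ on the strand of the gene. Capitals mark the codons of the 2 cysteines and 2 histidines that hold the zinc ion.
Ikzf1, chr11:11754024-11754086, plus strand, exon 6: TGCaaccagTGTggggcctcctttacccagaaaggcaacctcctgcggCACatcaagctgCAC
Ikzf2, chr1:69570581-69570643, minus strand, exon 5: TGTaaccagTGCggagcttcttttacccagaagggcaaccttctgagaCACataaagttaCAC
Ikzf3, chr11:98488940-98489002, minus strand, exon 5: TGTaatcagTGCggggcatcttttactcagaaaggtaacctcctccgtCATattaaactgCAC
Ikzf4, chr10:128640229-128640291, minus strand, exon 5: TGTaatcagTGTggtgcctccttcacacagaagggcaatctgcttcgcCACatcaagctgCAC
Ikzf5, chr7:131392501-131392563, minus strand, exon 4: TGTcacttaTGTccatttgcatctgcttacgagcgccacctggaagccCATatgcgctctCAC
The sequence of Ikzf1 was identical to that of Ikzf2 at 51 of 63 bases (81.0%), to that of Ikzf4 at 53 (84.1%) and to that of Ikzf5 at 26 (41.3%). In this finger Ikzf5 was the most distant from Ikzf1. Despite this relatedness, runs of 31 bases shared between transcripts of different members were few. Transcripts of Ikzf2 and Ikzf4 shared 3 such runs, those of Ikzf2 and Ebf1 shared 3, those of Ikzf4 and Ebf1 shared 14, and no other pair of the 9 genes shared any. Overlap with genes on the other strand was larger for Ikzf5, where 4652 of 5721 exonic bases (81.3%) are also exonic in Pstk. Since SmartSeq2 libraries do not keep the strand, reads of Ikzf5 and Pstk cannot be told apart there, and the values of Ikzf5 are uncertain.

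Between 5315435 and 30941726 counts per KO library and between 7633446 and 18256010 per WT library were assigned to genes. Spi1 RNA, the check of the targeted gene, was not lower in KO, with 60.6 ± 31.1 CPM (counts scaled to library size after TMM normalization; SD, n = 6) against 24.4 ± 21.3 in WT (SD, n = 4), a log2 fold change of 1.31 ± 0.69 (SE) and an edgeR adjusted p of 0.337, and Tnfrsf11a was at 2.56 ± 1.15 CPM in KO and 2.16 ± 2.44 CPM in WT. The gene table was counted over whole genes, so this does not show whether the floxed exons were present. Summed over 12 stem cell markers the KO libraries held 1709 to 2506 CPM and the WT libraries 770 to 1563 CPM. Libraries also held RNA of genes used here as markers of other cell types, and which cells it came from was not tested. Summed over 12 endothelial markers the libraries ranged from 673 CPM in WT 15416 to 11235 CPM in KO 15409 (replicates are named by the numbers of their titles). These 2 are the libraries that stand apart in the results below. Xist, transcribed from the inactive X chromosome of females, was at 381 CPM in KO 15406 and 332 CPM in KO 15409. It was at 73.5 to 129 CPM in the 4 WT libraries and at 1.26 to 2.40 CPM in the other 4 KO libraries. The sex of the embryos, read here from Xist alone, is thus partly confounded with genotype. Among the libraries with high Xist, its level still differed between the groups. Other properties of the libraries moved with genotype as well. Relative to the mean of all libraries, genes with longer transcripts tended to be higher in the 6 KO libraries (Spearman's rho with length across genes, 0.0540 to 0.227) and lower in the 4 WT libraries (-0.194 to -0.0973). At equal depth 14580 to 15465 genes were detected in KO and 13759 to 14597 in WT.

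Among the 9 genes, Bcl11a and Ikzf1 were the most abundant in LT-HSCs, measured as TPM (a level per transcript length, scaled to the same total in each library) summed over the transcripts of each gene. In WT, Bcl11a was at 35.9 ± 22.1 TPM (SD, n = 4) and Ikzf1 at 19.8 ± 11.7 TPM, and Bcl11a was above Ikzf1 in 3 of 4 libraries. Ikzf5 followed at 5.90 ± 1.53 TPM, below Ikzf1 in all 4 libraries. Next came Satb1 at 3.66 ± 3.14 TPM, Ikzf2 at 1.85 ± 1.25 TPM and Ebf1 at 1.41 ± 1.90 TPM, and each of these neighbours in the order kept its place in only 3 of 4 libraries. Ikzf4 was the least abundant gene with any signal, at 0.0512 ± 0.0344 TPM. In KO the order was the same apart from Ikzf2, which stood next after Ikzf1 at 9.58 ± 5.68 TPM (SD, n = 6), above Ikzf5 (7.28 ± 1.64 TPM) in 5 of 6 libraries and above Satb1, at 6.48 ± 3.59 TPM. Bcl11a (34.6 ± 11.6 TPM) was above Ikzf1 (25.6 ± 8.75 TPM) and Ikzf1 above Ikzf2 in all 6 KO libraries.

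Ikzf3 and Dntt were not detected. The 4 transcripts of Ikzf3 (chr11:98464902-98546031) and the 2 of Dntt (chr19:41029275-41059525) were listed at 0 estimated counts in each of the 10 libraries. A count of 0 allows up to 3 counts, which is 0.0970 CPM in the deepest library and 0.564 CPM in the shallowest, and covers counting error only, since the reads carry no molecular identifiers.

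None of the 7 genes tested was called higher or lower in KO by edgeR's quasi-likelihood test at a Benjamini-Hochberg adjusted p below 0.1. Over all genes tested, 1.32% were called higher (221 genes) and 2.67% lower (446 genes). These counts were not stable, since leaving out 1 library gave 0 to 405 genes higher and 0 to 598 lower, with 405 and 598 without KO 15409, 1 and 0 without KO 15411, and 0 of either without KO 15405, KO 15406, KO 15412, KO 15415 or WT 15416. Before adjustment, Ikzf2 and Ikzf4 were higher at a p below 0.05, as were 8.6% of all genes, and no member was lower, against 10.2% of all genes. No member had KO and WT libraries that did not overlap, whereas 2.88% of genes did with KO higher and 3.48% with KO lower. The labels do not say whether the libraries came from separate litters, and p-values measure the spread between these libraries.

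**Figure D1:**
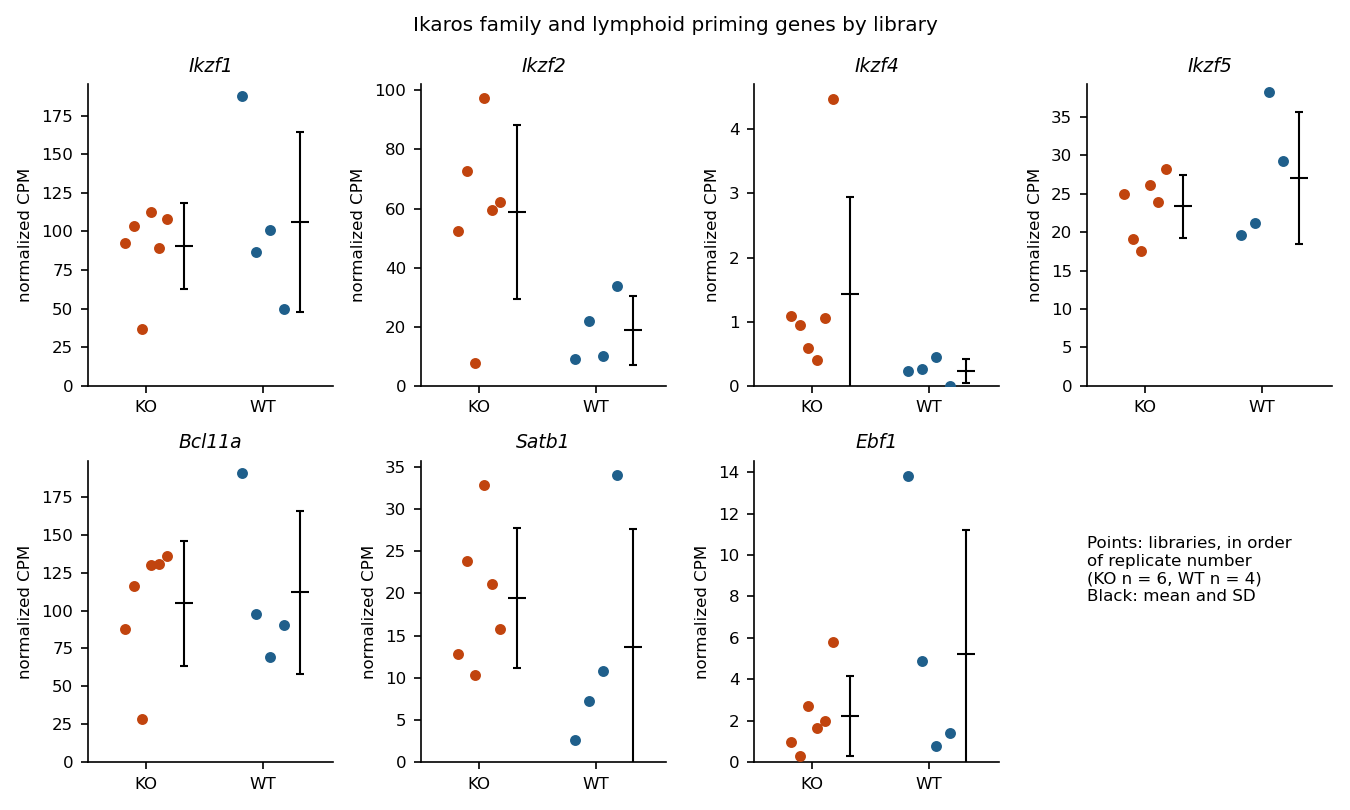
TMM-normalized CPM (y axis, linear and starting at 0, scaled for each gene) of the 7 genes tested in each KO (n = 6, red) and WT (n = 4, blue) library, with the mean and SD in black and bars that would pass below 0 cut there. For Ikzf2, 5 KO libraries lie above every WT library and the remaining one, KO 15409, lies below all of them.

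Ikzf2 showed the smallest p of the 7 genes. It lies on the minus strand at chr1:69531214-69687245. Its level ranged from 7.80 CPM over a median of 61.0 to 97.5 CPM in the 6 KO libraries, and was 9.18, 21.9, 10.2 and 33.8 CPM in WT 15416, 15417, 15418 and 15420. The KO libraries other than KO 15409 were at 52.4 CPM or more, above the highest WT library, while KO 15409 was below the lowest. The means were 58.7 ± 29.5 CPM in KO (SD, n = 6) and 18.8 ± 11.6 CPM in WT (SD, n = 4), a 3.14-fold difference with a 95% interval of 1.31 to 7.52, or 1.65 ± 0.58 (SE) on the log2 scale. The edgeR p was 0.0145 and 0.160 after adjustment over all genes, so the difference did not pass the threshold. It did pass with DESeq2 at the log2 fold-change threshold of 0.1 that the study used (adjusted p = 0.0796), where 3.56% of all genes were called higher. It passed as well in edgeR without KO 15409, at a log2 fold change of 1.88 ± 0.40 and an adjusted p of 0.0506 (2.44% of genes called higher), and without both KO 15409 and WT 15416, at 1.65 ± 0.37 and 0.0641 (1.59% of genes called higher). It did not pass with any other single library left out (edgeR adjusted p from 0.124 to 0.299). KO 15409 was the lowest KO library, so leaving it out raises the KO mean by construction. Among the 6 libraries with high Xist, which leave 2 KO libraries of which 1 is KO 15409, the log2 fold change was 1.09 ± 0.83 with an adjusted p of 0.847. The libraries with low Xist are all KO and give no comparison. With the log2 level of Xist as a covariate over all libraries it was 1.33 ± 0.65, with an adjusted p of 0.370. Sex and genotype cannot be fully told apart in these libraries. Ikzf2-201, the transcript with the largest share of Ikzf2 in each library, is 9278 bases long. With an offset for transcript length in each library the log2 fold change was 1.26 ± 0.56, with an adjusted p of 0.265. It was 2.01 ± 0.60 (adjusted p = 0.129) from transcript sums with an offset for the mean transcript length of the gene in each library, and 2.11 ± 0.97 (adjusted p = 0.325) with the number of genes detected as a covariate.

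Ikzf4 was near the limit of detection. It lies on the minus strand at chr10:128630843-128645991 and had 3, 3, 6 and 0 counts in the 4 WT libraries and 6 to 68 counts in the 6 KO libraries. In CPM these values were 0.228, 0.266, 0.444 and 0 in WT 15416, 15417, 15418 and 15420, and 0.410 to 4.47 with a median of 1.0 in KO. In 5 of 6 KO libraries Ikzf4 was above the highest WT library, and KO 15415 alone held 4.47 CPM. The means were 1.43 ± 1.51 CPM in KO and 0.234 ± 0.182 CPM in WT. The log2 fold change was 2.52 ± 1.04, with an edgeR p of 0.0308 and an adjusted p of 0.213. With so few counts the estimate is wide, with a 95% interval of 0.27 to 4.76, and without KO 15415 it was 1.72. Only DESeq2 with no fold-change threshold called the gene (adjusted p = 0.0741), under which 6.08% of all genes were called higher.

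Ikzf1, at chr11:11685003-11772926 on the plus strand, was abundant in both groups and did not pass the test. KO libraries ranged from 36.8 over a median of 98.2 to 113 CPM, and the WT libraries 15416, 15417, 15418 and 15420 were at 188, 86.6, 101 and 49.5 CPM. The lowest value of all was in KO 15409 and the highest in WT 15416, with the other 8 libraries between 49.5 and 113 CPM. The log2 fold change was -0.23 ± 0.36 (95% interval -1.01 to 0.55, adjusted p = 0.787), and it turned to 0.20 ± 0.33 without WT 15416 and to 0.36 ± 0.23 without both libraries that stand apart. The sign also depended on the scale, since mean TPM was higher in KO and mean CPM was lower. Ratios of KO to WT from 0.497 to 1.47 lie within the interval.

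Ikzf5, at chr7:131388652-131410521 on the minus strand, varied least. Its level was 17.6 to 28.2 CPM in KO with a median of 24.5, and 19.6, 21.1, 38.2 and 29.3 CPM in WT 15416, 15417, 15418 and 15420. The groups overlapped over most of their range. The log2 fold change was -0.21 ± 0.26 (95% interval -0.78 to 0.35, adjusted p = 0.715), and was 0.052 without WT 15418. As for Ikzf1, mean TPM was higher in KO (7.28 against 5.90) and mean CPM lower (23.3 against 27.0).

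**Figure D2:**
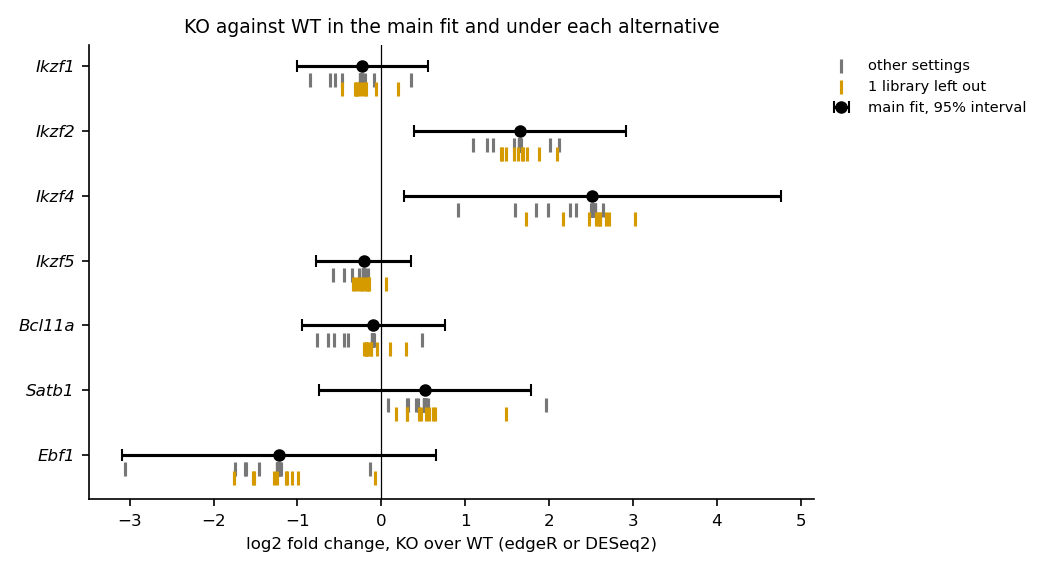
Log2 fold change of KO over WT (x axis) of the 7 genes tested, from edgeR's main fit with its 95% interval (black), under the other settings (grey ticks) and with each library left out (yellow ticks). The intervals of Ikzf2 and Ikzf4 lie above 0 before adjustment for the number of genes, and ticks on both sides of 0 are seen for Ikzf1, Ikzf5 and Bcl11a.

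Bcl11a (chr11:24078056-24174123, plus strand) was the member with the smallest difference. KO libraries spanned 28.6 to 136 CPM with a median of 123, and WT 15416, 15417, 15418 and 15420 were at 190, 97.4, 69.4 and 90.6 CPM. As for Ikzf1, KO 15409 was lowest and WT 15416 highest. The log2 fold change was -0.094 ± 0.39 (95% interval -0.95 to 0.76, adjusted p = 0.925). It was 0.10 without KO 15409, 0.29 without WT 15416 and 0.48 ± 0.20 without both, the last with an adjusted p of 0.238. For Bcl11a and Ikzf1, leaving out the lowest KO and the highest WT library raises the log2 fold change by construction. Leaving out both was also chosen after the data were seen. These settings show that the sign rested on those libraries, and cannot show which sign holds.

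Satb1 (chr17:51736187-51833290, minus strand) varied more among WT than among KO libraries. It was at 10.4 to 32.9 CPM in KO with a median of 18.5, and at 2.65, 7.28, 10.9 and 34.0 CPM in WT 15416, 15417, 15418 and 15420. The highest value of all was in WT 15420, while the other 3 WT libraries were at 10.9 CPM or less. The means were 19.5 ± 8.26 and 13.7 ± 13.9 CPM, and the log2 fold change was 0.52 ± 0.58 (95% interval -0.75 to 1.78, adjusted p = 0.684). Without WT 15420 it was 1.49 with an adjusted p of 0.143.

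Ebf1 (chr11:44617317-45008091, plus strand) was low in most libraries. KO libraries ranged from 0.316 over a median of 1.82 to 5.79 CPM. In WT, 15416 held 13.8 CPM, 15417 held 4.88 CPM, 15418 held 0.813 CPM and 15420 held 1.42 CPM. WT 15416 had 182 counts, and the other 3 WT libraries had 55, 11 and 10. The log2 fold change was -1.22 ± 0.86 (95% interval -3.09 to 0.66, adjusted p = 0.480) and was -0.076 without WT 15416.

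The transcripts that made up these levels were read from the transcript tables, as shares of the summed TPM of the gene and with no test. Fingers were counted by a fixed spacing of cysteines and histidines. A finger with another spacing is missed, so the counts given here may be too low. Ikzf1-204, which encodes 515 residues with 5 C2H2 fingers, made up 58.2% to 79.6% of Ikzf1 in KO and 69.3% to 93.3% in WT. Ikzf1-202, a short transcript of 911 bases with 3 fingers, was at 0.401 to 3.50 TPM in KO and 0 to 0.436 TPM in WT. It rested on only 181 estimated counts over all libraries. Other short transcripts overlapped more between the groups. Ikzf1-206 was at 0 to 7.25 TPM in KO and 0 to 5.10 TPM in WT. Ikzf1-205 was at 0 to 3.63 and 0 to 3.36 TPM. For Ikzf2, the 9278-base transcript Ikzf2-201, encoding 526 residues with 5 fingers, was at 0.965 to 11.7 TPM in KO and 0.622 to 2.85 TPM in WT. It made up 48.7% to 100% of the gene in KO and 76.2% to 100% in WT. Most of the remainder was assigned to Ikzf2-203 and Ikzf2-205, both annotated as transcripts with a retained intron. For Bcl11a, the largest share in TPM went to Bcl11a-204, a 1505-base transcript that encodes 191 residues with 1 finger, ahead of Bcl11a-202, which encodes 835 residues with 6 fingers. The share of Bcl11a-204 was 37.0% to 61.8% in KO with a median of 46.8%, and 48.0% to 78.3% in WT with a median of 64.8%. Bcl11a-202 made up 21.0% to 35.0% in KO and 11.2% to 28.8% in WT. In estimated counts, which grow with length, Bcl11a-202 (8252 over all libraries) exceeded Bcl11a-204 (4774). Satb1-203 led Satb1 in the medians of both groups, with 62.5% in KO and 73.1% in WT, and Ikzf5-201 led Ikzf5, with 59.6% and 76.6%. A short read often fits several transcripts of a gene, so these shares depend on the model by which the authors divided reads.

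**Figure D3:**
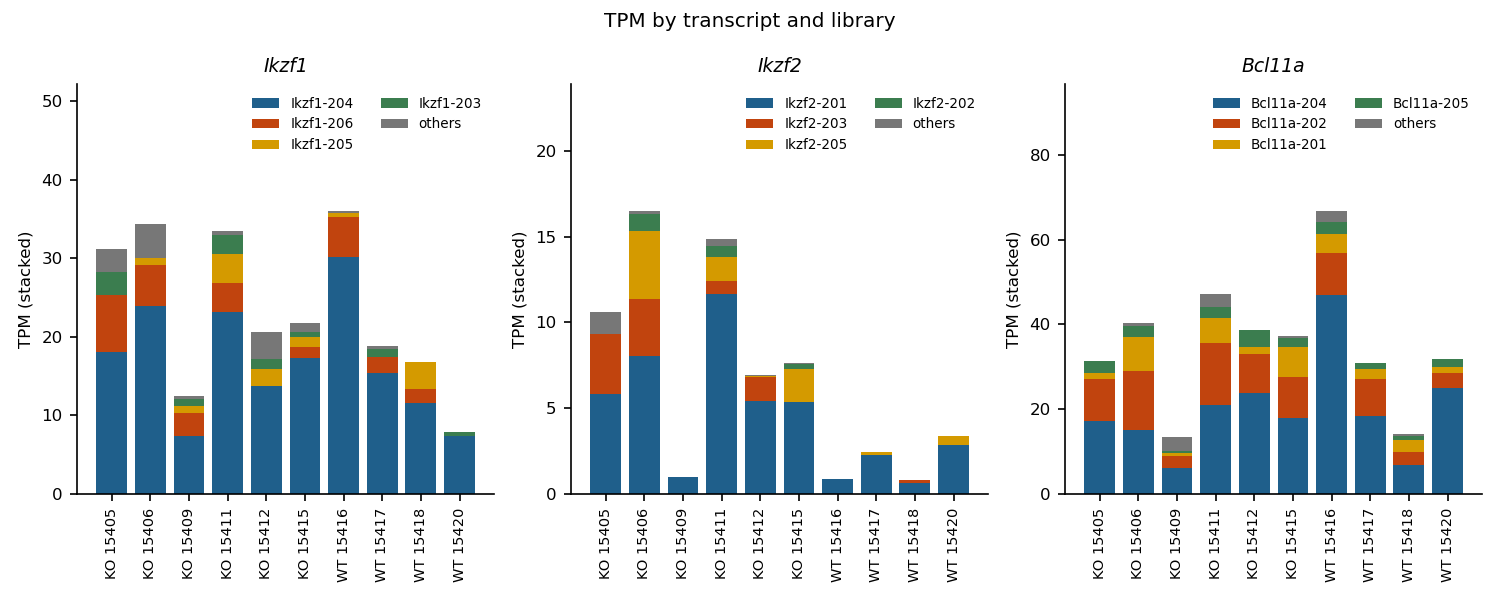
TPM (y axis, linear, stacked from 0) of the 4 transcripts with the highest mean levels and of all others together for Ikzf1, Ikzf2 and Bcl11a in each library (x axis, KO then WT). Ikzf1-204, Ikzf2-201 and Bcl11a-204 are the largest blocks of their genes in all 10 libraries.

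Genes around the 9 members were read from lists by role, 71 genes besides the members, of which 61 could be tested. Of these, 1 was called higher in KO and none lower by edgeR, where 1.32% of all genes were called higher and 2.67% lower. Before adjustment 9 were higher and 5 lower at a p below 0.05, against 8.6% and 10.2% of all genes. DESeq2 at its threshold of 0.1 called 3 higher, against 3.56% of all genes. The gene called was Mef2c, a transcription factor that promotes lymphoid over myeloid fate in progenitors. It was at 201 ± 21.4 CPM in KO and 94.0 ± 30.4 CPM in WT, a log2 fold change of 1.10 ± 0.23 (adjusted p = 0.0824), and its KO libraries (164 to 227 CPM) were all above its WT libraries (49.3 to 114 CPM). Its log2 fold change was positive under all 25 alternatives (0.81 to 1.38), and the call held under 15 of them. It was lost without KO 15405, KO 15406, KO 15411, KO 15412, KO 15415 or WT 15416, with Xist or the number of genes detected as a covariate, among libraries with high Xist and with the length offset, where adjusted p-values reached 0.837, and it does not hold at an adjusted p below 0.05. Of 13 early lymphoid genes tested, 10 had a positive and 3 a negative log2 fold change, with a median of 0.74 against 0.062 over all genes tested, and 12 did not pass. The other most abundant genes of that list were Tcf4, an E protein (180 ± 60.7 CPM in KO, 108 ± 35.0 in WT, log2 fold change 0.74, adjusted p = 0.206), and Foxp1, a forkhead factor of B cell development (117 ± 26.1 and 70.0 ± 13.5 CPM, 0.74, 0.110).

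Of the genes of committed lymphoid lineages none was called. Of 14 B lineage genes 8 could be tested, with a median log2 fold change of 0.32. Cd79b, a subunit of the B cell receptor, was the only one of them above a mean of 10 CPM, at 29.8 ± 15.5 CPM in KO and 23.8 ± 16.7 CPM in WT (adjusted p = 0.806). Blnk, an adaptor of the same receptor, was at 1.77 ± 0.65 and 3.43 ± 1.87 CPM, and Cd22, an inhibitory receptor, at 1.01 ± 0.88 and 1.18 ± 0.48 CPM. Of 14 T and innate lymphoid genes 12 were tested, with a median of -0.35. The most abundant were Id2, an inhibitor of E proteins (138 ± 38.6 CPM in KO, 194 ± 132 in WT, log2 fold change -0.49, adjusted p = 0.567), Lck, a kinase of T cell receptor signalling (30.9 ± 12.4 and 32.6 ± 22.9 CPM, -0.07, 0.958), and Tcf7, a factor of early T cells (7.12 ± 1.61 and 8.20 ± 2.31 CPM, -0.20, 0.821). Among 6 paralogs of the members the median was 0.67 and the most abundant were the repair polymerases Poll and Polm, relatives of Dntt, at log2 fold changes of 0.19 and -0.50. Bcl11b, the T lineage relative of Bcl11a, was at or below 1.57 CPM in every library.

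The partners of Ikaros proteins were abundant in both groups, and none passed the test. All 17 genes of the NuRD complex and other corepressors were tested, 7 had a positive and 10 a negative log2 fold change, and the median was -0.01. Rbbp7, a histone-binding subunit, was at 380 ± 18.3 CPM in KO and 487 ± 98.4 CPM in WT (log2 fold change -0.36, adjusted p = 0.237). Hdac1, a histone deacetylase, was at 316 ± 56.1 and 318 ± 26.8 CPM (-0.01, 0.984), and Mta2, a scaffold subunit, at 191 ± 23.2 and 190 ± 77.8 CPM (0.01, 0.991). The 5 genes of the cereblon ubiquitin ligase, through which drugs of the thalidomide class degrade some Ikaros proteins in human cells, had a median of -0.11 and none was called. Ddb1 was at 468 ± 108 CPM in KO and 413 ± 187 in WT, Rbx1 at 220 ± 41.7 and 325 ± 83.5, and Cul4a at 104 ± 12.0 and 111 ± 31.5.

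**Figure D4:**
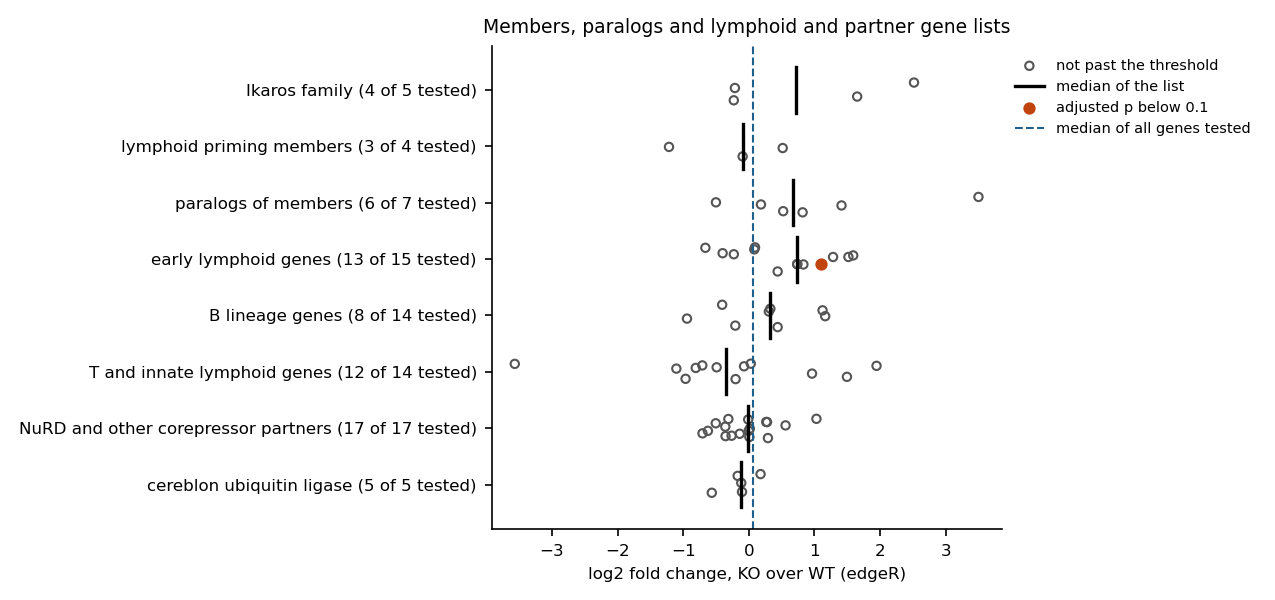
Log2 fold change of KO over WT from edgeR (x axis) of each gene tested in the 2 groups of members and the 6 lists around them (rows), with the median of each list (black bar) and of all genes tested (dashed line, 0.062). Mef2c is the only filled point, called at an adjusted p below 0.1, and the lists of corepressors and of the ligase lie closest to 0.

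The levels of the members were set beside the cell type markers in each library. In these bulk samples, fewer cells of a type and less RNA per cell cannot be told apart. KO 15409, with the highest summed endothelial markers (11235 CPM), had the lowest Ikzf1, Ikzf2 and Bcl11a, and WT 15416, with the lowest (673 CPM), had the highest Ikzf1, Bcl11a and Ebf1 but a low Ikzf2. The other libraries lay between 2204 and 9107 CPM of endothelial markers. WT 15416 also had the lowest summed stem cell (770 CPM), macrophage, hepatoblast, B cell, and T cell and NK cell markers. Its erythroblast, megakaryocyte, and granulocyte and mast cell markers were not the lowest. None of the 12 endothelial markers was called between the groups, with a median log2 fold change of 0.28. Of 12 stem cell markers 11 had a positive log2 fold change, the median was 0.99, and 4 were called higher in KO, namely Mecom, a stem cell transcription factor (1.83 ± 0.46, adjusted p = 0.0836), Hlf, a bZIP factor that marks stem cells (1.84 ± 0.49, 0.0906), Hoxa9 (2.09 ± 0.53, 0.0836) and Cd34 (0.93 ± 0.23, 0.0824). All 4 kept their sign under the 25 alternatives, but the calls held under only 12 (Hlf) or 13 of them and, with 1 library left out, under 1 (Hlf), 2 (Hoxa9) or 3 (Mecom and Cd34) of 10 settings. None was called with Xist as a covariate. The lowest KO library in summed stem cell markers (1709 CPM) was above the highest WT library (1563 CPM). KO 15409, at 1793 CPM, was within the range of the other KO libraries in this sum, and its Ikzf2 was the lowest of all libraries. A sum does not show the level of each stem cell marker in that library. B cell markers summed to 12.6 to 57.1 CPM in KO and 4.40 to 45.1 CPM in WT, and T cell and NK cell markers to 26.5 to 58.2 and 5.99 to 65.1 CPM, of which Lck gave the most, while Cd3e was at 0 counts in all 10 libraries. Macrophage markers summed to 457 to 976 CPM in KO and 136 to 918 CPM in WT, and hepatoblast markers to 1423 to 10401 and 1133 to 7797 CPM. Megakaryocyte markers summed to 252 to 3826 and 280.0 to 1312 CPM, and erythroblast markers to 243 to 2463 and 237 to 6973 CPM. Of 12 erythroblast markers listed 8 were tested, and the globins of the list were not analysed here and are not in the erythroblast sums. The sums overlapped between the groups, but single genes often leaned one way. All 8 erythroblast markers tested had a negative log2 fold change (median -1.54), as did 10 of 14 macrophage markers (median -0.94), while all 8 megakaryocyte markers (median 0.93) and 11 of 12 hepatoblast markers (median 0.72) had a positive one. Of the genes tested on these lists only Marco, a macrophage scavenger receptor, was called, listed at 0 counts in all KO libraries and at 6.88 ± 4.99 CPM in WT. That call held under 16 of 25 alternatives. The part of these markers in the differences of the members was not tested.

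**Figure D5:**
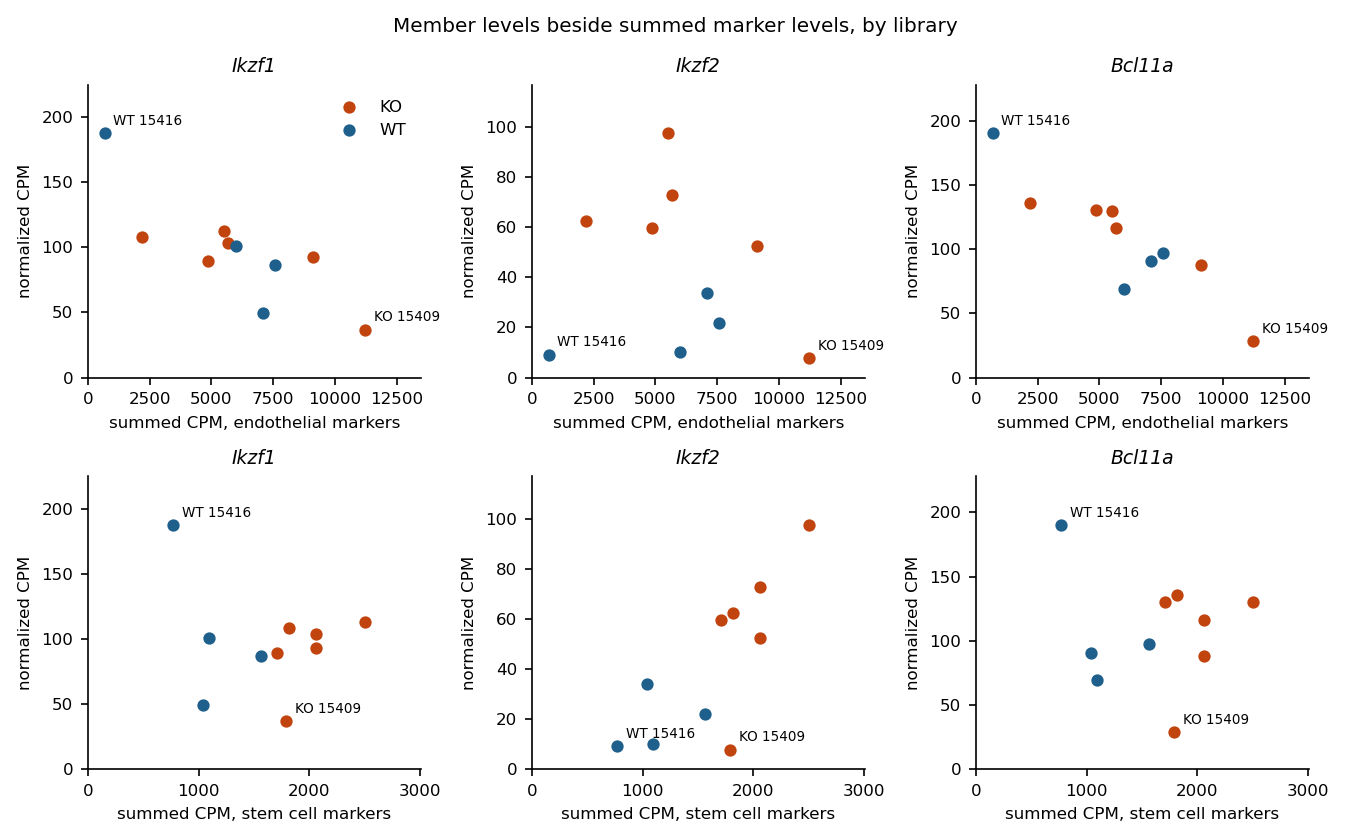
CPM of Ikzf1, Ikzf2 and Bcl11a (y axis) against the summed CPM of 12 endothelial markers (upper row, x axis) and of 12 stem cell markers (lower row, x axis) in each KO (red) and WT (blue) library, all axes linear from 0. KO 15409 (11235 CPM of endothelial markers) and WT 15416 (673 CPM) lie at the 2 ends of the endothelial scale.

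Since no member was called, the genes closest in pattern were sought for Ikzf2, the member with the smallest p, by Pearson's r of log2(CPM + 0.5) over the 10 libraries among 9495 genes with a mean of at least 10 CPM. The 5 closest were Trpc6, a cation channel (r = 0.973), Hlf (r = 0.971), Chd9, a chromatin remodeler (r = 0.962), Ifi203, an interferon-induced gene (r = 0.959), and Cirbp, a cold-induced RNA-binding protein (r = 0.958). Within the 6 KO libraries, r was 0.941 to 0.987 for these 5. The libraries share depth, sorting and the genotype difference, and the genes were picked as the highest of all, so the values are a description. Hlf was called higher in KO, a call lost with any library but KO 15409 left out. The other 4 had log2 fold changes of 0.87 to 1.32 and adjusted p-values of 0.117 to 0.301.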

How the data were processed

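RNA of sorted LT-HSCs (fetal liver, E14.5) was amplified by SmartSeq2 and sequenced single-end by the authors. They demultiplexed with bcl2fastq 2.20 and quantified with Kallisto 0.44.0 against Gencode vM16 (GRCm38). The authors deposited, per library, transcript tables with estimated counts and TPM, both used here, and a gene table of whole-number counts, not normalized. Sums of transcript estimates were within 1 count of 97.5% of the gene table's values. Positions, transcripts and coding sequences are from Gencode vM21 (GRCm38).

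KO (n = 6) and WT (n = 4) were compared over the genes whose counts summed to 11 or more, with edgeR 4.0.16 (R 4.3.3): TMM normalization, glmQLFit with robust estimation, glmQLFTest and a Benjamini-Hochberg adjusted p below 0.1 over all genes tested. Standard errors were derived from the F statistic. The study's test, DESeq2 (1.42.0) testing against a log2 fold change of 0.1, was an alternative, as were other normalizations, filters, covariates, length offsets, thinning, a threshold of 0.05 and each library left out. Other alternatives, chosen after seeing the data, were libraries with high Xist (above 50 CPM), the number of genes detected as a covariate, and leaving out KO 15409 with WT 15416. The fit was tested on simulated data. Python 3.11.15 with NumPy 2.4.6 and pandas 2.3.3 wrote the tables.

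The genes, the lists around them and the tests were chosen with earlier results of these data known. Named are the members, Spi1 and Tnfrsf11a, of each list the genes called and the 3 with the highest mean CPM, and the 5 genes most like Ikzf2. Cd3e, Xist, Bcl11b, Pstk, Mecom, Hlf, Hoxa9, Cd34 and Marco were named after their values were seen. Depth was 5315435 to 30941726 counts per library, and limits from counts cover counting error only.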

Additional observations from a re-analysis of the deposited data

Results flagged for a closer look

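Dixon's criterion was applied to CPM in 14 groups of libraries (7 genes in KO and in WT). In 2 of them a library's gap to its neighbour was large against the range of the group. For normally distributed values chance gives this in about 1 group in 20. CPM need not be so distributed, and the 14 groups share the same libraries, so they are not independent. Ikzf1 was at 36.8 CPM in KO 15409, where the next KO library was at 89.5 CPM. Ikzf4 was at 4.47 CPM in KO 15415, where the next KO library was at 1.10 CPM, from 68 and 18 counts.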

How the results depend on the processing

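Of the 7 genes tested, Ikzf2, Ikzf4, Satb1 and Ebf1 kept the sign of their log2 fold change under all 25 alternatives. Ikzf2 ranged from 1.09 to 2.11 and passed under 4 of them (DESeq2 with and without its threshold, without KO 15409, and without both KO 15409 and WT 15416), Ikzf4 ranged from 0.92 to 3.02 and passed under 1, Satb1 from 0.080 to 1.96 and Ebf1 from -3.05 to -0.076, and no other member passed under any. The sign turned for Ikzf1 without WT 15416 (0.20) and without both libraries (0.36), for Bcl11a without KO 15409 (0.10), without WT 15416 (0.29) and without both (0.48), and for Ikzf5 without WT 15418 (0.052). With each library left out, Ikzf1 ranged from -0.46 to 0.20, Ikzf5 from -0.34 to 0.052 and Bcl11a from -0.21 to 0.29. The cause was not tested. The number of members higher was 0, and 1 with DESeq2 at its threshold, 2 with DESeq2 at none, 1 without both libraries and 0 to 1 with each library left out. Members lower were 0 throughout.

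Counts over all genes moved widely between settings. Genes higher numbered 221 (lower 446), and 585 (551) with DESeq2 at its threshold, 998 (1145) at none, 0 (1) with Xist as a covariate, 38 (310) with the length offset, 234 (273) from transcript sums, 0 (0) among libraries with high Xist, 1 (0) with the number of genes detected as a covariate, 262 (292) without both libraries and 0 (0) at an adjusted p below 0.05. Before adjustment, p was below 0.05 for 1438 higher and 1701 lower genes. With each library left out, 0 to 405 genes were higher and 0 to 598 lower. There were 405 and 598 without KO 15409, 1 and 0 without KO 15411, and 0 and 0 without KO 15405, KO 15406, KO 15412, KO 15415 or WT 15416. Pathway genes besides the members were 1 higher, and 3, 8, 2, 2, 0, 0, 0, 0 and 0 with DESeq2 at its threshold, DESeq2 at none, filterByExpr, transcript sums, Xist, the length offset, high Xist only, the number of genes detected and an adjusted p below 0.05, and 0 to 4 with each library left out. Lower were 0, and 1 with DESeq2 at no threshold. Log2 fold changes rose with transcript length (Spearman's rho 0.222 over 15993 genes, which are not independent, and -0.0227 after the length offset). The offset moved the median over all genes from 0.062 to -0.13 and transcript sums moved it to 0.18, and with them Ikzf2 was at 1.26 and 2.01. No paired analysis was possible because the labels give no litter by which KO and WT libraries could be paired. Depth limits Ikzf3 and Dntt, at 0 counts, and Ikzf4, with 3 counts or fewer in 3 of 4 WT libraries.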
